A study of Mus musculus with 22 samples.

Results

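The perineuronal net (PNN) is a condensed form of extracellular matrix (ECM) that wraps the soma and proximal dendrites of selected neurons, in the hippocampus mostly parvalbumin (Parv) interneurons. Its scaffold is built of hyaluronan chains made at the cell surface by hyaluronan synthases, of chondroitin sulphate proteoglycans of the lectican family that bind hyaluronan, of link proteins that lock this binding, and of tenascin-R, which ties lecticans to each other. The net matures after birth, and it is known for restricting plasticity and for buffering the cations around fast-spiking cells.

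Hippocampal expression of 9 genes of this scaffold was followed in TgproNGF#3 and WT mice. They are the lecticans Acan, Bcan, Ncan and Vcan, the link proteins Hapln1 and Hapln4, tenascin-R (Tnr), the hyaluronan synthase Has3, and Ptprz1, a receptor phosphatase whose secreted form, phosphacan, binds tenascin-R in the net. The members were chosen by name and function, with earlier results of these data known. All 13 non-control probes whose RefSeq transcript belongs to these genes were used, out of 55681 probes on the array, and they stand for 9 of the 21154 genes that have a probe.

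TgproNGF#3 is 1 founder line that carries a mouse pre-proNGF cDNA made resistant to furin cleavage, followed by an IRES and EGFP, under the Thy1.2 promoter, which is active in post-natal neurons of the brain. WT mice lacked the transgene, and all mice were of the C57Bl/6xDBA/2 background and untreated. Total RNA of the right hippocampus was hybridized to one-colour Agilent arrays, 1 RNA per array, for 4 TgproNGF#3 and 4 WT males of 1 month, 4 and 4 males of 3 months, and 3 and 3 females of 12 months. Age, sex and slide change together over these groups and cannot be told apart, since 1 slide held all arrays of an age, and genotypes were compared within an age. At 12 months the TgproNGF#3 arrays and WT replicate 3 lay in row 2 of the slide, and WT replicates 1 and 2 in row 1. Genotype and array row can hardly be told apart at that age.

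A level is the log2 intensity of a probe minus the 75th percentile of the spots kept on its array. Levels of different probes are not comparable, because each probe has its own brightness. Between 57.6 and 80.3% of spots per array were well above background, and no spot of the 13 probes was saturated. All 8 markers of hippocampal principal neurons were well above background on every array. In RNA of a whole hippocampus, fewer cells of a type and less RNA per cell cannot be told apart.

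None of the net genes was called at any age, a call being a Log2 FC beyond 1 in either direction at an unadjusted limma p under 0.05. The count was 0 of 13 probes tested at 1 month, where 0.57% of all probes were called. It was 0 of 11 at 3 months, where 6.76% were called, and 0 of 11 at 12 months, where 1.3% were called. The Log2 FC of the 9 genes by their first probe (the brighter one, where a gene has several) lay between -0.13 and 0.64 at 1 month. For the 8 genes measured later, it lay between -0.53 and 0.55 at 3 months and between -0.42 and 0.64 at 12 months. The median over these genes was 0.04 at the first age, -0.19 at the second and -0.06 at the last, beside 0.07, -0.05 and 0.06 over all genes. No member passed an adjusted p of 0.05 at 1 or 12 months, where 0% of all probes did.

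**Figure D1:**
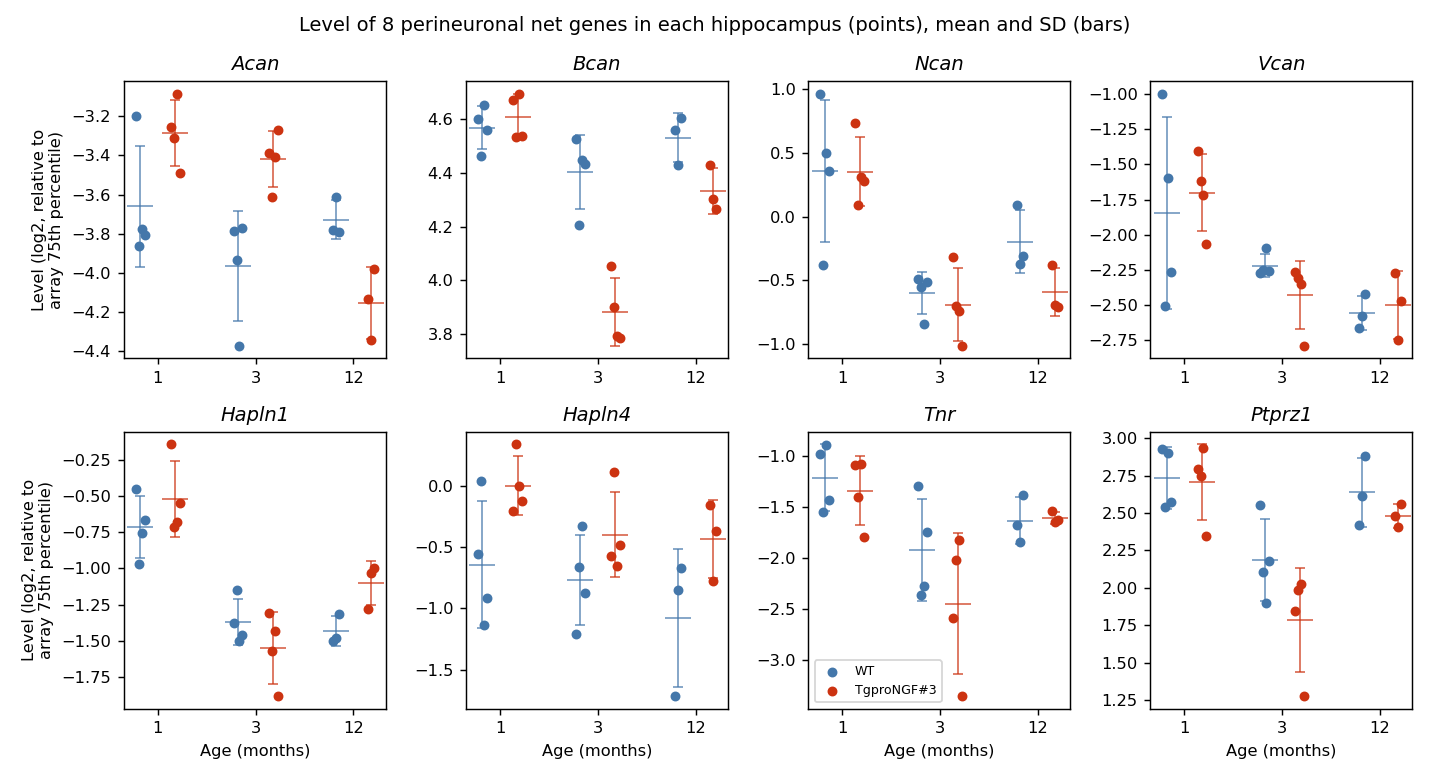
Level of 8 net genes (log2, relative to the array's 75th percentile, y axis with its own range in each panel) by age in months, first probe of each gene. Each point is 1 mouse (blue WT, red TgproNGF#3) and the bars are the mean and SD of 4 mice at 1 and 3 months and 3 at 12 months. Acan in TgproNGF#3 mice lay above all WT mice at 3 months and below all of them at 12 months, and Bcan lay below all WT mice at both ages.

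Acan encodes aggrecan, the lectican most tied to PNNs. The gene lies on chromosome 7 (chr7:79053226-79115099, GRCm38.p6), and the probe matches transcript NM_007424. Its upstream sequence is shown because Acan was the member whose genotype effect differed between 3 and 12 months at the adjusted threshold, under the settings named beside that result. The 250 bases before the annotated start (RefSeq, GRCm38.p6, chr7:79052976-79053225, plus strand, 5′ to 3′) are printed, from windows matched for 7 of the 9 genes, with the GC box letters GGGCGG, on either strand, in capitals.
Acan upstream: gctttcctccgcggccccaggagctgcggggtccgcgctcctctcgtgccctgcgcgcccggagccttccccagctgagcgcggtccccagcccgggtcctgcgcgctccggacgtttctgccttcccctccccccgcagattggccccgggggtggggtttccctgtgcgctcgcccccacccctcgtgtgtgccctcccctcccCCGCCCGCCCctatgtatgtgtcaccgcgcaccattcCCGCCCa
These bases hold 3 matches of the GC box, of which 2 overlap, and 74.4% of them are G or C. Of 32851 upstream windows of this length, 32.7% hold at least 1 match, so that the match is a description and not a feature particular to Acan.

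At 1 month the Acan level was -3.25, -3.31, -3.08 and -3.49 in TgproNGF#3 mice and -3.20, -3.86, -3.77 and -3.81 in WT mice. All TgproNGF#3 mice lay above 3 of the WT mice, while WT replicate 1 lay inside their range. The Log2 FC was 0.38 (SE 0.20, exact permutation p = 0.114). At this age the groups overlapped for every one of the 13 member probes, while 3.32% of all probes had groups apart.

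At 3 months the level was -3.39, -3.62, -3.41 and -3.27 in TgproNGF#3 mice and -3.79, -3.93, -4.37 and -3.77 in WT mice. The groups did not overlap, as for 3 of the 11 member probes at this age and for 20.3% of all probes. The Log2 FC was 0.55 (SE 0.17, a 1.46-fold higher intensity, limma adjusted p = 0.0759), and the two-sided exact permutation p was 0.0286, the smallest that 4 against 4 mice allow. Of 12 other settings 3 gave an adjusted p below 0.05, 0.0437 with the authors' log2 values, 0.0491 with the percentile over all spots and 0.0279 with all 22 arrays in 1 fit. Among the rest it reached 0.181 with normexp background correction, where the Log2 FC was 0.31, and it was 0.155 with the replicate block. With each mouse left out in turn it lay between 0.0920 and 0.145.

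At 12 months the order was turned. The level was -4.14, -4.34 and -3.98 in TgproNGF#3 mice and -3.78, -3.61 and -3.79 in WT mice, and again the groups did not overlap, as for 4 of 11 member probes and 15.5% of all probes. The Log2 FC was -0.42 (SE 0.15, limma adjusted p = 0.549), and the exact permutation p was 0.1, the smallest that 3 against 3 mice allow. Acan was the only one of 11 member probes with an unadjusted p below 0.05 at this age, beside 9.05% of all probes. The Log2 FC was -0.20 with quantile normalization, -0.28 with the median in place of the 75th percentile and -0.36 with the array row as a block.

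The genotype effect on Acan differed between 12 and 3 months by -0.97 (SE 0.25, limma adjusted p = 0.0279). It was the only one of 11 member probes to pass in this contrast, in which 4.52% of all probes passed. No member probe passed between 3 and 1 months (2.87% of all probes) or between 12 and 1 months (0%). The adjusted p was 0.0564 with the replicate block, 0.0637 with a normexp background correction, 0.203 with quantile normalization and 0.216 with the median in place of the 75th percentile. It was also above 0.05 without WT replicate 3 of 3 months (0.0541), without TgproNGF#3 replicate 1 (0.0538) or 2 (0.0839) of 12 months, and without WT replicate 1 (0.0555) or 2 (0.0822) of 12 months. The difference lay between -1.06 and -0.83 when each mouse was left out in turn.

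Markers of leptomeningeal fibroblasts, cells of the brain's covering, read on the same side as Acan at 3 and 12 months and on the other side at 1 month. At that age 8 of 10 were lower (median Log2 FC -0.33). Of these, 1, Slc22a2, was called, beside 0.168% of all genes on the lower side. At 3 months 10 of 10 were higher in TgproNGF#3 mice (median Log2 FC 0.72), beside 43.8% of all genes. Of these markers 2, Islr and Slc22a2, passed the adjusted threshold (2.05% of all genes passed on the higher side). Slc22a2 was also called, beside 0.775% of all genes on the higher side. The mean level of the 10 markers, set to the WT mean, ran from 0.17 to 1.11 in TgproNGF#3 mice and from -0.23 to 0.38 in WT mice. At 12 months 8 of 9 were lower (median -1.17) and 4 were called (Islr, Slc22a6, Slc6a13 and Aldh1a2), beside 0.854% of all genes on the lower side. Of these markers 0 passed the adjusted threshold. The mean levels ran from -1.16 to -0.55 in TgproNGF#3 mice and from -0.29 to 0.39 in WT mice. The part of these markers in the Acan differences was not tested.

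Markers of Parv interneurons, the cells most nets enclose, were read as well. Of 9 markers, 7 could be tested at all ages (Pvalb, Kcnc1, Kcnc2, Lhx6, Gad1, Gad2 and Slc32a1), while Syt2 and Erbb4 could not. Gad1 and Gad2 mark GABAergic interneurons in general, so that the list is not specific to Parv cells. At 3 months 3 of 7 were higher (median -0.04), beside 43.8% of all genes. At 12 months 7 of 7 were higher (median 0.48), beside 59.9% of all genes. The list's mean level at 12 months ran from 0.25 to 0.62 in TgproNGF#3 mice and from -0.28 to 0.31 in WT mice. The mean level of 8 principal neuron markers at that age ran from 0.15 to 0.35 in TgproNGF#3 and from -0.05 to 0.04 in WT mice, with 5 of 8 higher. Pvalb itself, the calcium buffer that names these cells, had a Log2 FC of 0.05, -0.04 and 0.34 at 1, 3 and 12 months, and Erbb4 was not well above background on any array of 3 or 12 months. None of the 7 passed the adjusted threshold at 12 months. At an unadjusted limma p below 0.05, 2 of the 7 and 2 of the 8 principal neuron markers were higher, beside 8.1% of all genes in either direction. The potassium channel gene Kcnc1 fell at 3 months (Log2 FC -1.87, limma adjusted p = 0.00499). At that age 4.48% of all genes passed on the lower side and 3.35% were called on it.

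Over the 22 arrays, after subtracting the mean of each genotype and age group, the named genes most like Acan among 28898 probes were Recql4 (r = 0.90, Spearman's rho 0.84), DXBay18 (r = 0.88, rho 0.84) and Rpl30 (r = 0.87, rho 0.85). Without the 2 arrays farthest from the median Acan value r was 0.80, 0.76 and 0.81, and the order of the 3 genes changed. These are descriptions, since any factor common to an array enters both genes.

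Bcan encodes brevican, a lectican made by glia and neurons in adult brain, and lies on chromosome 3 (chr3:87987531-88002175). It has 2 probes, the brighter first one listed for transcript NM_007529 and the second for NM_001109758. At 1 month neither differed between genotypes beyond the spread (Log2 FC 0.04 and 0.14, 95% intervals from -0.29 to 0.37 and from -0.32 to 0.60).

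At 3 months the first probe read 4.05, 3.90, 3.79 and 3.78 in TgproNGF#3 mice and 4.53, 4.21, 4.45 and 4.43 in WT mice. It fell by 0.52 on the log2 scale (SE 0.13, 1.44-fold lower, limma adjusted p = 0.0445), and every TgproNGF#3 mouse lay below every WT mouse (exact permutation p = 0.0286). This was the only member probe with an adjusted p below 0.05 at 3 months, beside 8.43% of all probes. The adjusted p was above 0.05 without any one of the 8 mice (0.0507 to 0.141), 0.136 with the replicate block and 0.0653 with quantile normalization. Of 12 other settings 4 gave an adjusted p below 0.05. It was 0.125 with the median, 0.173 with dim spots kept and 0.0930 with the percentile over all spots, with a Log2 FC of -0.39 in each of the last 2.

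The second probe read 1.28, 1.29, 1.48 and 1.65 in TgproNGF#3 mice and 1.23, 0.88, 0.96 and 0.92 in WT mice at 3 months. It went the other way, again without overlap (Log2 FC 0.43, SE 0.15, limma adjusted p = 0.0992, exact permutation p = 0.0286). The mean of both probes differed by -0.05 (adjusted p = 0.828), so that the direction for Bcan as a gene depends on the probe.

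The difference of both probes on an array (first minus second) is not moved by any scaling that subtracts 1 value per array. It was chosen after the values had been seen and, with the probes apart in opposite directions, had to be apart at 3 months, so that it is given there as a description with no test. At 3 months it was 2.77, 2.61, 2.31 and 2.13 in TgproNGF#3 mice and 3.30, 3.33, 3.49 and 3.51 in WT mice. The groups differed by -0.95 on average, with the TgproNGF#3 mice lower. The value was -0.93 with quantile normalization and -0.91 with normexp, which can move the probes unequally, and lay between -1.06 and -0.84 without any one mouse. At 1 month TgproNGF#3 mice had a mean of 2.38 ± 0.19 (SD, n = 4) and WT mice one of 2.48 ± 0.25 (SD, n = 4; exact permutation p = 0.514). At 12 months they were 2.72 ± 0.15 (SD, n = 3) and 2.88 ± 0.18 (SD, n = 3, exact permutation p = 0.4).

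**Figure D2:**
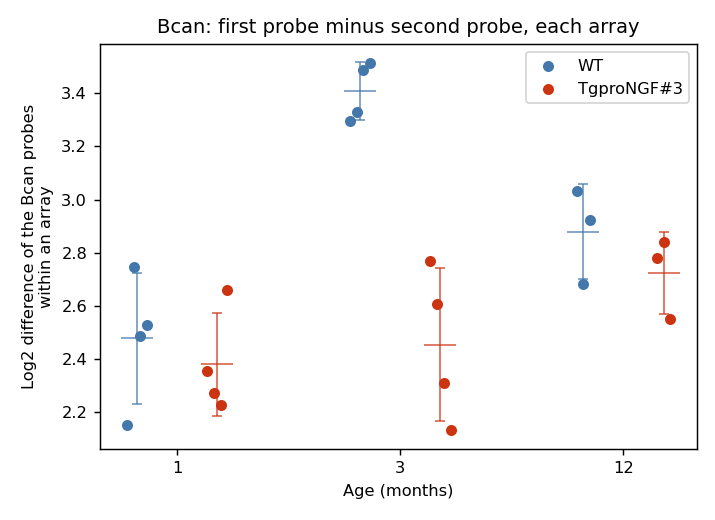
Log2 level of the first Bcan probe minus that of the second on the same array (y axis) by age in months, 1 point per mouse, with mean and SD (blue WT, red TgproNGF#3; 4 mice a group at 1 and 3 months, 3 at 12 months). The 4 WT mice of 3 months sit between 3.30 and 3.51, above the TgproNGF#3 mice of that age at 2.13 to 2.77.

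At 12 months the first Bcan probe again lay lower in all 3 TgproNGF#3 mice (4.43, 4.30 and 4.27) than in WT mice (4.56, 4.43 and 4.61), with a Log2 FC of -0.20 whose 95% interval ran from -0.51 to 0.11 (exact permutation p = 0.1). The lowest WT mouse and the highest TgproNGF#3 mouse were nearly level, and the value was -0.05 with the median in place of the 75th percentile.

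Markers of the glia that make lecticans were read beside Bcan. At 3 months, when 43.8% of all genes were higher, 6 of 8 astrocyte markers were lower in TgproNGF#3 mice (median Log2 FC -0.11). None of them passed the adjusted threshold. Of 6 markers of oligodendrocyte precursors, 4 were higher (median 0.27), and 2 passed the adjusted threshold, Lhfpl3 at 0.61 and Gpr17 at -0.71 (2.05% of all genes passed higher and 4.48% lower). Their part in the Bcan readings was not tested.

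Ncan encodes neurocan, the lectican most abundant in the young brain. Its Log2 FC was -0.01 at 1 month and -0.09 at 3 months, with overlapping groups. At 12 months its level was -0.38, -0.69 and -0.71 in TgproNGF#3 mice and 0.09, -0.37 and -0.31 in WT mice. Every TgproNGF#3 mouse lay lower, though the highest of them by only a small step (Log2 FC -0.40, SE 0.18, exact permutation p = 0.1). The value was -0.26 without WT replicate 1, -0.25 with the median in place of the 75th percentile and -0.29 with the array row as a block.

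Vcan encodes versican, a lectican of white matter and of the embryonic and perinodal matrix. Its first probe differed by 0.14, -0.21 and 0.06 at 1, 3 and 12 months, and the second probe (transcript NM_172955) by -0.08, -0.05 and -0.10. The groups overlapped at every age. Another, dim probe of the same transcript was well above background on 7 arrays, all of 1 month. Its Log2 FC was 0.64 (SE 0.33), and it was called, at 1.09, when TgproNGF#3 replicate 1 was left out.

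Hapln4, the link protein that the nets of adult inhibitory circuits hold, had a positive Log2 FC at all 3 ages. At 1 month its level was -0.21, 0.34, 0.00 and -0.12 in TgproNGF#3 mice and -0.55, 0.04, -1.14 and -0.91 in WT mice. WT replicate 2 lay within the TgproNGF#3 range, and the Log2 FC of 0.64 (SE 0.26) had an exact permutation p of 0.114. Within replicate numbers the TgproNGF#3 mouse was higher by 0.35, 0.30, 1.14 and 0.79, and the limma adjusted p was 0.786 with the number as a block. At this age only replicates 1 and 4 correlated best with their own number over all probes. Hapln4 was the only one of 13 member probes below an unadjusted p of 0.05 at this age, beside 3.47% of all probes.

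At 3 months the Hapln4 Log2 FC was 0.37 (SE 0.23) with overlapping groups, and it was 0.20 without TgproNGF#3 replicate 2 and 0.22 without WT replicate 1. At 12 months the level was -0.16, -0.78 and -0.37 in TgproNGF#3 mice and -1.72, -0.85 and -0.67 in WT mice, a Log2 FC of 0.64 (SE 0.30, exact permutation p = 0.2). It was 0.32 without WT replicate 1, the lowest mouse. On the slide of this age, WT replicate 3 was the only WT array in the row that held the TgproNGF#3 arrays, and with the array row as a block the value was 0.23.

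Hapln1, the link protein of cartilage and of the first nets, differed by 0.19 at 1 month and -0.18 at 3 months, with overlapping groups. At 12 months its level was -1.28, -1.03 and -0.999 in TgproNGF#3 mice and -1.50, -1.48 and -1.31 in WT mice. All TgproNGF#3 mice lay higher (Log2 FC 0.33, SE 0.14, exact permutation p = 0.1), and the value was 0.21 with the array row as a block.

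Each lectican gene has a link protein gene as its neighbour. Ncan and Hapln4 lie 2.22 kb apart on chromosome 8, and Vcan and Hapln1 lie 43.5 kb apart on chromosome 13, with no annotated gene between. At 12 months the Log2 FC was -0.40 for Ncan beside 0.64 for Hapln4, and 0.06 for Vcan beside 0.33 for Hapln1, and none of these had an unadjusted p below 0.05. Hapln2 and Hapln3, the partners beside Bcan and Acan, had Log2 FC values of 0.46 and 0.02 at 3 months, and neither passed the adjusted threshold.

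Tnr encodes tenascin-R, a trimer made by oligodendrocytes and some neurons. Its Log2 FC was -0.13 at 1 month and 0.03 at 12 months. At 3 months the level was -2.59, -2.02, -1.82 and -3.35 in TgproNGF#3 mice and -1.30, -2.36, -2.28 and -1.74 in WT mice. The mean difference of -0.53 (SE 0.36, exact permutation p = 0.286) lay within this spread, and was -0.22 without TgproNGF#3 replicate 4.

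Ptprz1 has 2 probes of the same transcript, and they read alike. The first had a Log2 FC of -0.03, -0.40 and -0.16 over the ages in turn, and the second 0.02, -0.46 and -0.15. The first was -0.23 at 3 months without TgproNGF#3 replicate 4, and at 12 months it ran from -0.40 with the array row as a block to -0.00702 with the median in place of the 75th percentile. At 3 months the second probe had a limma adjusted p of 0.156 and an exact permutation p of 0.0571, and 3 of 4 TgproNGF#3 mice lay below every WT mouse. Together with Acan and both Bcan probes it made 4 of 11 member probes with an unadjusted p below 0.05, beside 27.2% of all probes.

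Has3, which makes hyaluronan, was near the lower limit of the array. Its probe was well above background on 3 of 4 arrays in each group of 1 month (Log2 FC -0.05, SE 0.27), on no array of 3 months, and at 12 months on 2 of 3 TgproNGF#3 and 0 of 3 WT arrays. The level on those 2 arrays was -6.04 and -6.40. The remaining TgproNGF#3 array, replicate 2, had an intensity of 16.2, below the 17.0 of WT replicate 3, and no fold is given.

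**Figure D3:**
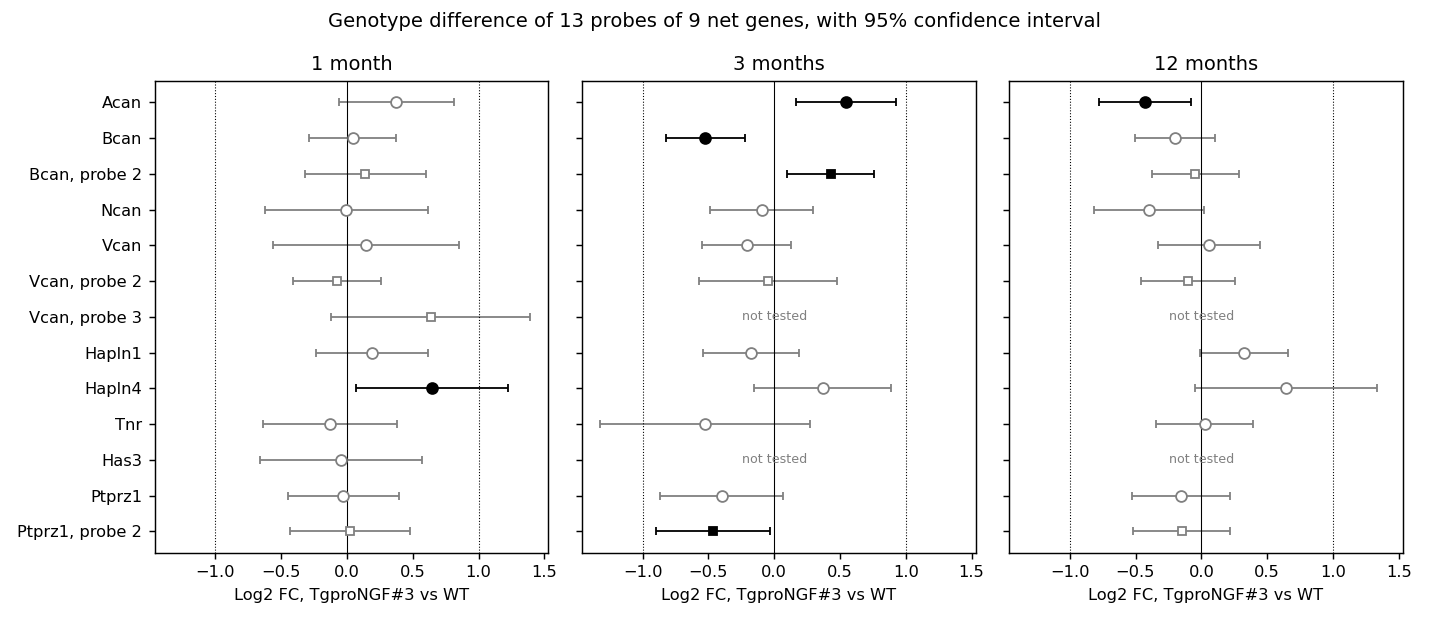
Log2 FC of TgproNGF#3 against WT mice (x axis) for each of the 13 probes of 9 net genes (rows) at each age, with the 95% confidence interval. Circles are first probes, squares are further probes, black marks an unadjusted p below 0.05, and dotted lines mark -1 and 1. Every point lies between the dotted lines, Acan lies at 0.55 at 3 months and -0.42 at 12 months, and the Bcan probes lie on opposite sides of 0 at 3 months.

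In WT mice the levels over ages are a description only, for the reason given above. The median of all genes moved by -0.44 from 1 to 3 months, an amount set by the choice of scaling (0.02 with the percentile over all spots), and by 0.03 from 3 to 12 months. Differences are therefore given relative to that median. From 1 to 3 months Ncan read -0.52, Tnr -0.27 and Hapln1 -0.22, while Hapln4 read 0.31 and Bcan 0.27. A value subtracted from a whole array cannot change such a relative difference, while quantile normalization, normexp and keeping dim spots can. Under these the 5 genes kept their sign, though Bcan read 0.11 with normexp, whereas Acan (0.13), Vcan (0.06) and Ptprz1 (-0.11) changed it with quantile normalization.

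The WT level of Ncan was 0.36 ± 0.56 (SD, n = 4) at 1 month, -0.60 ± 0.17 (SD, n = 4) at 3 months and -0.20 ± 0.25 (SD, n = 3) at 12 months. By level, 2 of 8 genes (Ncan and Hapln1) had ranges apart between 1 and 3 months, beside 41.6% of all probes, a count that ran from 0 to 5 with the scaling. It was 4 without WT replicate 2 of 1 month and 5 without WT replicate 1 of 3 months. Between 3 and 12 months it was 2 of 8 (Ncan and Vcan), beside 28.3% of all probes. From 3 to 12 months, relative to the median of all genes, Ptprz1 read 0.43, Ncan 0.37, Tnr 0.26, Acan 0.21 and Bcan 0.10. Vcan read -0.37, Hapln4 -0.34 and Hapln1 -0.09, and these signs were the same with quantile normalization, normexp and dim spots kept, with Bcan as low as 0.0038.

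The second probes of Bcan, Vcan and Ptprz1 differed from the first ones over age in sign or size. From 1 to 3 months the second Bcan probe read -0.65 relative to the median, the second Vcan probe -0.45 and the second Ptprz1 probe 0.07. From 3 to 12 months they read 0.63, 0.23 and 0.20.

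**Figure D4:**
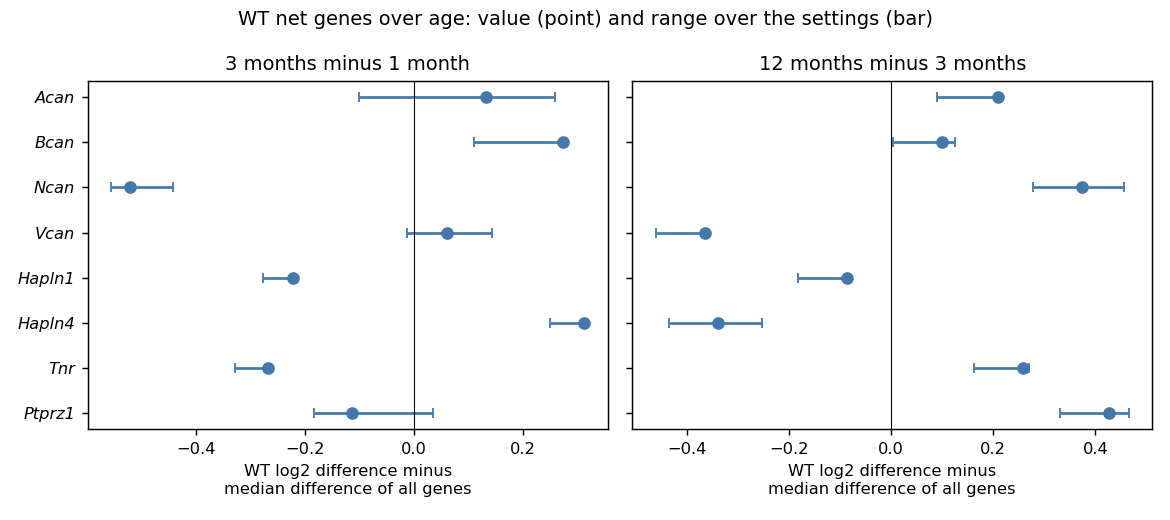
WT log2 difference between neighbouring ages minus the median difference of all genes (x axis) for the first probe of 8 net genes (rows), 4 WT mice at 1 and 3 months and 3 at 12 months. Points use the 75th percentile scaling, and bars span it, quantile normalization, normexp and dim spots kept. Among these first probes Ncan reads -0.52 from 1 to 3 months and Ptprz1 0.43 from 3 to 12 months, where the second Ptprz1 probe, not drawn, reads 0.20.

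The enzymes and partners around the scaffold were read from lists of genes. Chondroitin sulphate chains, which give lecticans their charge, are started, extended and sulphated by enzymes of which 21 were tested at 3 months. By the call rule 1 of 21 rose (0.775% of all genes by 1 probe each, 0.643% of all probes) and 4 of 21 fell (3.35% of genes, 6.12% of probes), with a median Log2 FC over the list of -0.02 beside -0.05 over all genes. B4galt7 and Fam20b, which act on the linkage sugar by which chains are attached, fell by 1.74 and 1.77 on the log2 scale (limma adjusted p = 0.00133 and 0.0124). Ust, which sulphates uronic acid in the chain, fell by 1.29 (limma adjusted p = 0.00567). Dse, a dermatan sulphate epimerase named after its values were seen, read -1.27 and was called. It had values on 3 TgproNGF#3 and 4 WT arrays and did not pass the adjusted threshold (limma adjusted p = 0.0793). Chst14, a dermatan sulphotransferase, rose by 1.0 on the log2 scale, and the chain-extending Chsy3 and Chpf2 passed the adjusted threshold at 0.72 and 0.68, the latter by its first probe. The second Chpf2 probe read 0.63 with overlapping groups and did not pass (limma adjusted p = 0.0968).

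At 1 and 12 months 0 of 22 genes of this list were called, beside 0.342 and 1.18% of all genes, and none had an adjusted p below 0.05. By an unadjusted p below 0.05, 1 was higher and 0 lower at 1 month (2.15 and 1.31% of all probes), and 2 were higher and 1 lower at 12 months (3.11 and 5.94%). B4galt7 then read 0.39 at 1 month and 0.85 at 12 months, on the other side of 0 from its value at 3 months, and Ust read 0.41 at 12 months with groups apart. Chst14, the lower gene at 12 months, read -0.68 with overlapping groups, also on the other side of 0 from its value at 3 months.

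Of the other net and matrix partners, 14 were tested at 3 months and 1 was called, beside 4.12% of all genes by 1 probe each. Spock1, which encodes the proteoglycan testican-1, fell by 2.24 on the log2 scale (SE 0.31). Its level at this age was -3.87 to -2.40 in TgproNGF#3 mice and -1.23 to -0.71 in WT mice. It read 0.45 at 1 month and 0.70 at 12 months, with groups apart on the other side and no adjusted p below 0.05, while a second, dimmer probe read -0.01 at 12 months. The hyaluronan synthase Has1 had a Log2 FC of 0.95 (limma adjusted p = 0.0455). Among 12 receptors and ligands that bind chondroitin sulphate, Ptprs, a receptor phosphatase for these chains on neurons, was lower (Log2 FC -0.58, limma adjusted p = 0.0285) and 0 of 12 were called.

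**Figure D5:**
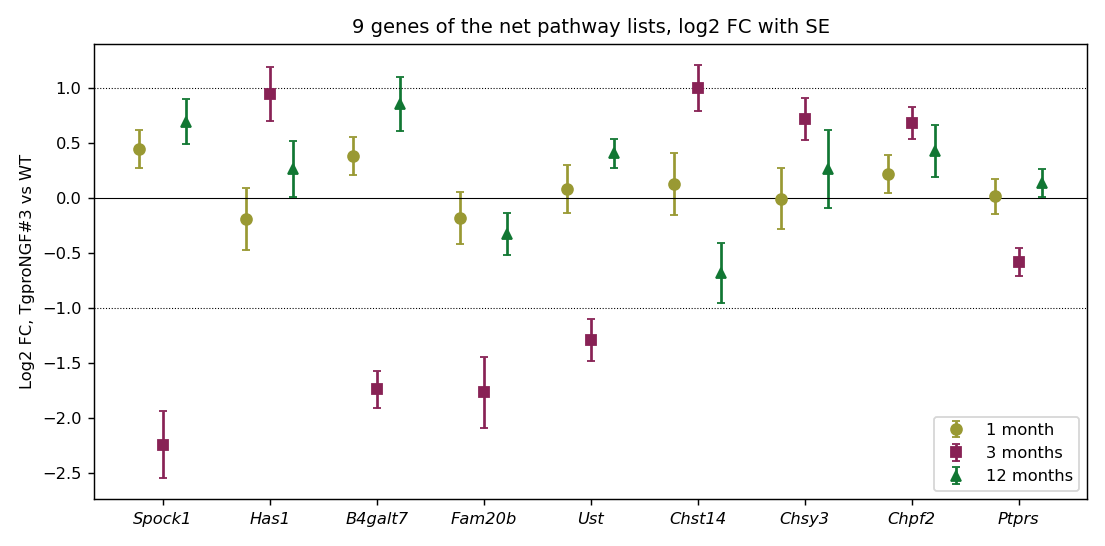
Log2 FC of TgproNGF#3 against WT mice (y axis) with its SE for 9 genes around the net scaffold (x axis) at 1 month (circles), 3 months (squares) and 12 months (triangles); dotted lines mark -1 and 1. Spock1, Fam20b, B4galt7 and Ust lie below -1 at 3 months only, and Chst14 lies above 0 at that age.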

How the data were processed

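Hippocampal RNA of TgproNGF#3 and WT mice was measured at 3 ages on Agilent one-colour arrays. The authors deposited spot intensities from Feature Extraction 10.7.3.1, background-subtracted and detrended but not scaled between arrays, and log2 values scaled to a shared 75th percentile, which served as an alternative. The notes of the submitters also name limma. Spots were dropped if they were controls, dim (not well above background) or outliers. From each log2 intensity the array's 75th percentile over spots kept was subtracted, and spots of a probe were averaged. Dim transcripts are thereby lost, and the precision is limited by the number of arrays.

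Members were matched through RefSeq identifiers (28026 probes have a symbol), and coordinates come from the RefSeq table of GRCm38.p6. The members and lists were chosen with earlier results of these data known. Named were all members with every probe, up to 6 genes per list called or with an adjusted p below 0.05, and the 3 genes most like Acan. Dse, Hapln2, Hapln3, Tnc, Cemip2, Tnfaip6 and single markers are named beside these and were chosen after their values were seen.

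Within each age all probes with at least 2 values per group were fitted with limma 3.58.1 in R 4.3.3 (lmFit, eBayes, two-sided, Benjamini-Hochberg over 40536, 33593 and 34064 probes). Differences between ages were tested on all 22 arrays (32420 probes). Single probes were also compared by two-sided exact permutation over mice. The procedure was tested on simulated data. Alternatives were the filter, the percentile, the median, quantile normalization, normexp (offset 50, on median spot signals in place of the processed ones), blocks, 1 fit, probe averaging, thresholds and leaving out each mouse. At 1 month the correlations of deviations within replicate numbers 1 to 4 were 0.58, 0.30, 0.25 and 0.29. Only replicates 1 and 4 correlated best with their own number, so that pairing by number is partial there. At 3 and 12 months no replicate did so. The labels do not say whether mice were littermates.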

Additional observations from a re-analysis of the deposited data

Results flagged for a closer look

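The genotype effect on Acan differed between ages: the 12-month Log2 FC less the 3-month one was -0.97. In 6 of 44 sets of values (11 probes in each of 4 groups of 4 mice) 1 mouse was set apart from the other 3 by a wide gap. Chance gives about 1 in 20 for a single set, and these sets share mice. Acan in WT replicate 1 of 1 month was at -3.20, beside -3.86 to -3.77 in the others. The second Ptprz1 probe was at 2.31 in TgproNGF#3 replicate 4 of 1 month (others 2.74 to 2.82). The first Vcan probe was at -2.10 in WT replicate 3 (others -2.27 to -2.25) and at -2.79 in TgproNGF#3 replicate 4 (others -2.35 to -2.27) of 3 months. The second Vcan probe was at -1.99 in WT replicate 1 of 1 month (others -2.19 to -2.18) and at -3.35 in WT replicate 3 of 3 months (others -2.93 to -2.89).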

How the results depend on the processing

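Acan kept its direction at 3 and 12 months, and Hapln1, Hapln4 and Ncan theirs at 12 months, under every alternative run. The Acan difference between 12 and 3 months no longer passed with the median (-0.86, and 0 member probes passing), quantile normalization (-0.83, 0 probes), normexp (-0.70, 0 probes) or the replicate block (-0.97, 0 probes), and 2 probes (Acan and the second Bcan probe) passed with the authors' values. In a fit of the 14 arrays of 3 and 12 months, chosen after seeing the data, it was -0.97 (limma adjusted p = 0.0313). Each mouse left out gave -1.06 to -0.83 and 0 to 1 probes there, 0 to 1 between 3 and 1 months (Bcan, first probe), and 0 to 1 called at 1 month (the dim Vcan probe). With dim spots kept, 1 member probe was called at 3 months (the dim Vcan probe, well above background on 0 of 8 arrays) and 1 at 12 months (Has3, on 0 of 3 WT arrays), so that neither has a measured fold. By adjusted p alone 1 passed at 3 months, and by unadjusted p alone 1, 4 and 1 at the 3 ages. The WT count of ranges apart from 1 to 3 months was 0 with dim spots kept, with the percentile over all spots and with the authors' values, 5 with quantile normalization, and 2 to 5 without a mouse.

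Log2 FC values near 0 changed sign. With dim spots kept Bcan read -0.022 at 1 month and Ncan 0.039 at 3 months. With the percentile over all spots these read -0.025 and 0.035, and Tnr -0.000623 at 12 months. With the median, Ncan read 0.048 and Ptprz1 0.028 at 1 month, and the second Bcan probe 0.10 at 12 months. Quantile normalization gave Ncan 0.017 at 1 month. Normexp gave Ptprz1 0.0057 at 1 month and Vcan -0.00211 at 12 months. The authors' values gave Bcan -0.0226 at 1 month, and Tnr -0.055 and Vcan -0.024 at 12 months. The array row as a block gave Tnr -0.22 and Vcan -0.075, and the mean of all probes Vcan -0.0233, at 12 months. Without a mouse the ranges crossed 0 for Ncan (-0.25 to 0.19), Ptprz1 (-0.10 to 0.092), Tnr (-0.24 to 0.022) and Vcan (-0.080 to 0.42) at 1 month, Ncan at 3 months (-0.22 to 0.012), and Tnr (-0.079 to 0.15), Vcan (-0.055 to 0.18) and the second Bcan probe (-0.11 to 0.027) at 12 months. The cause was not tested.

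The replicate numbers as a block left 0 member probes called at each age. At 3 months the numbers do not pair the mice, and no mouse correlated best with its own number. There the member probes with an adjusted p below 0.05 went from 1 to 0 (Bcan, 0.136 with the block). Those with an unadjusted p below 0.05 went from 4 to 3, and over all probes the adjusted count went from 2831 to 794. The Acan age difference above also no longer passed. Genes of the lists were not followed with the block. With 3 or 4 mice a group, the 95% intervals of the members at 3 months reach 1.32 below 0 at the widest (Tnr), so that differences of that size cannot be set aside there.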

Other observations

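Genes that break down or bind hyaluronan were also read. None of 10, 9 and 9 tested at 1, 3 and 12 months was called or passed the adjusted threshold, beside 0.342, 4.12 and 1.18% of all genes called. Their Log2 FC ran from -0.58 to 2.31 at 1 month, from -0.64 to 0.58 at 3 months and from -2.15 to 0.26 at 12 months. None had an unadjusted limma p below 0.05 at 1 or 12 months. At 3 months the hyaluronidase Cemip2 had a Log2 FC of 0.58 (limma adjusted p = 0.0553) and Tnfaip6, which moves heavy chains onto hyaluronan, one of -0.64 (limma adjusted p = 0.0535). Tnc, the tenascin of the young brain, was well above background on all 8 arrays of 1 month and on none of 3 or 12 months. The median share of spots well above background was also higher at 1 month (74.9%) than at 3 (63.1%) or 12 months (64.7%). No age difference of Tnc is read from these counts.

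Markers of choroid plexus epithelium were lower in TgproNGF#3 mice for 7 of 7 genes at each age (median Log2 FC -0.43, -0.84 and -1.05), and none had an unadjusted p below 0.05. Their mean level per array, set to the WT mean, spanned -2.27 to 1.66 within WT mice of 1 month and -3.38 to 0.67 within TgproNGF#3 mice of 3 months.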
